A study of Rattus norvegicus with 8 samples.

Results

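Small RNAs such as microRNAs and small nucleolar RNAs are usually cut from much longer precursor transcripts, and histone marks can show the unit of transcription around their loci. The loci described here are the 256 rows of the deposited RNA table that carried a non-coding RefSeq accession (NR), carried no coding accession (NM) and spanned 300 bp or less, out of 30937 listed loci. Their spans ran from 34 to 295 bp with a median of 94 bp, and the next non-coding row outside the limit spanned 317 bp. By the gene type in the RefSeq table, 227 of them were microRNA loci and 2 were longer non-coding RNAs, Bc1 and Snhg4, while 27 accessions had no match and are given by accession. The name small RNA locus therefore holds for most members by annotation, and Snhg4, which hosts small nucleolar RNAs, is an exception. One of the 227, Snora36c, is typed as a microRNA and has the symbol of a small nucleolar RNA. The 256 rows fell on 228 positions, because 28 positions held 2 members each, and merging members within 10 kb left 124 separate loci.

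Primary vascular smooth muscle cells (the contractile cells of the artery wall) were taken from Sprague-Dawley rats, from the thoracic part of the aorta, and grown in medium with serum. The control cells had no treatment, and the other cells received 0.1 uM angiotensin II for 3 h (AngII, a vasoconstrictor peptide). Overnight withdrawal of serum is stated for the AngII cells only, so serum withdrawal and AngII cannot be told apart from the labels. Each condition had 1 library of ribosome-depleted RNA, 1 of H3K4me3 ChIP-seq and 1 of H3K36me3 ChIP-seq, so no comparison below has a replicate check and no p-value is given. Smooth muscle markers were expressed: all 5 with a matched locus were at 1 FPKM or more (fragments per kilobase of locus, scaled to library size), from 6.62 FPKM for Smtn to 5103 FPKM for Tagln in control. None of the 8 matched markers of endothelium, leukocytes, cardiac muscle, neurons and liver reached that level in either library, and Ptprc, Rbfox3 and Alb were listed at 0 in both.

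MicroRNAs are cut from a hairpin in a primary transcript by Drosha and Dgcr8, and again by Dicer, to a mature strand whose bases 2 to 8, the seed, pair with target messages. H3K4me3 marks promoters and H3K36me3 marks the body of transcription units that are being read, so a small RNA made from a distant promoter can carry the second mark without the first. In the vessel wall, miR-143, miR-145, miR-21, miR-221 and miR-222 are known regulators of smooth muscle growth and contractile state, and miR-132 and miR-212 are made from 1 primary transcript.

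The sequences below are mature microRNAs from RefSeq (assembly GRCr8), 5′ to 3′, with the seed in capitals, and they are shown because their loci carry the results that follow. The first 4 come from loci with H3K36me3 after AngII only, and the first pair shares the seed AACAGUC.
miR-132-3p: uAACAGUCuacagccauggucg
miR-212-3p: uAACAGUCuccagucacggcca
miR-210-3p: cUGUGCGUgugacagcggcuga
miR-146b-5p: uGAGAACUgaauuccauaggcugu
The next 4 lie beside a neighbouring gene with a higher RNA level after AngII.
miR-21-5p: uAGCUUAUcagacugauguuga
miR-23a-3p: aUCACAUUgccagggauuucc
miR-27a-3p: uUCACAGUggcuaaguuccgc
miR-24-3p: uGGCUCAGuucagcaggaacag
The following 4 come from loci with H3K36me3 and no H3K4me3 within 1 kb, and miR-221 and miR-222 share the seed GCUACAU.
miR-221-3p: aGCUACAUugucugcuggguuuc
miR-222-3p: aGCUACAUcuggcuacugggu
miR-29a-3p: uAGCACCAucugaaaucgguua
miR-31a-5p: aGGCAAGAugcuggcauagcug
The last 3 belong to loci with H3K4me3 and no H3K36me3 in both conditions, with miR-9a-5p shown for Mir9-1; its copy Mir9-2 had H3K4me3 after AngII only.
miR-9a-5p: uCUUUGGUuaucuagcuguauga
miR-375-3p: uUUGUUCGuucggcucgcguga
miR-34b-5p: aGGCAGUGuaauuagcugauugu

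Marks were read from the authors' lists of called regions, H3K4me3 as a region within 1 kb of the locus and H3K36me3 as a region on the locus. A Mir9 copy on unplaced sequence had no called regions on its sequence, which leaves 255 members. H3K4me3 lay at 73 of 255 members in control (28.6%, 95% exact Clopper-Pearson interval 23.2 to 34.6%) and at 78 after AngII (30.6%, 24.99 to 36.6%), where 61.2% of all listed loci had it in each condition. H3K36me3 lay on 89 members in control (34.9%, 29.1 to 41.1%) and on 96 after AngII (37.6%, 31.7 to 43.9%), against 72.6% and 74.7% of all listed loci. The intervals cover counting over loci only, and members of a cluster share regions. Listed loci are mostly long, with a median span of 25044 bp for rows with a coding accession, so a closer match is the 524 loci of 300 bp or less without an accession. Of these, 35.5% had H3K4me3 and 33.6% had H3K36me3 in control, and 37.4% and 34.2% after AngII. The shares of small RNA loci lay below those of all listed loci on both marks, and their intervals overlapped those of the other short loci (31.4 to 39.8% for H3K4me3 and 29.6 to 37.8% for H3K36me3 in control). Counted over 123 loci merged within 10 kb, the control shares were 40.7% for H3K4me3 and 41.5% for H3K36me3. The 160 microRNA or small nucleolar RNA rows listed over more than 300 bp had H3K4me3 at 86.9% and H3K36me3 at 81.25% in control, above all listed loci. The lower shares of the members therefore hold for rows of 300 bp or less and not for annotated small RNAs as a whole.

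Both marks together lay at 42 members in control and 53 after AngII, where 51.0% and 52.8% of all listed loci had both. As shares these were 16.5% and 20.8% of the members, beside 17.2% and 17.7% of the 524 short unnamed loci. H3K4me3 alone lay at 31 and 25, H3K36me3 alone at 47 and 43, and neither mark at 135 and 134. The state was the same in both conditions at 234 of 255 members. MicroRNA loci were marked less often than the other members: 53 of 226 microRNA loci (23.5%, 18.1 to 29.5%) had H3K4me3 in control against 20 of 29 others (69.0%, 49.2 to 84.7%), and 69 of 226 (30.5%, 24.6 to 37.0%) had H3K36me3 against 20 of 29 (69.0%, 49.2 to 84.7%). These 2 pairs of intervals did not overlap, but they take loci as independent. Of the microRNA loci, 52 lie in clusters of 1 domain on chromosome 6. In control 1 of these 52 had H3K4me3 and 0 had H3K36me3, and the contrast was not recomputed without them.

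**Figure D1:**
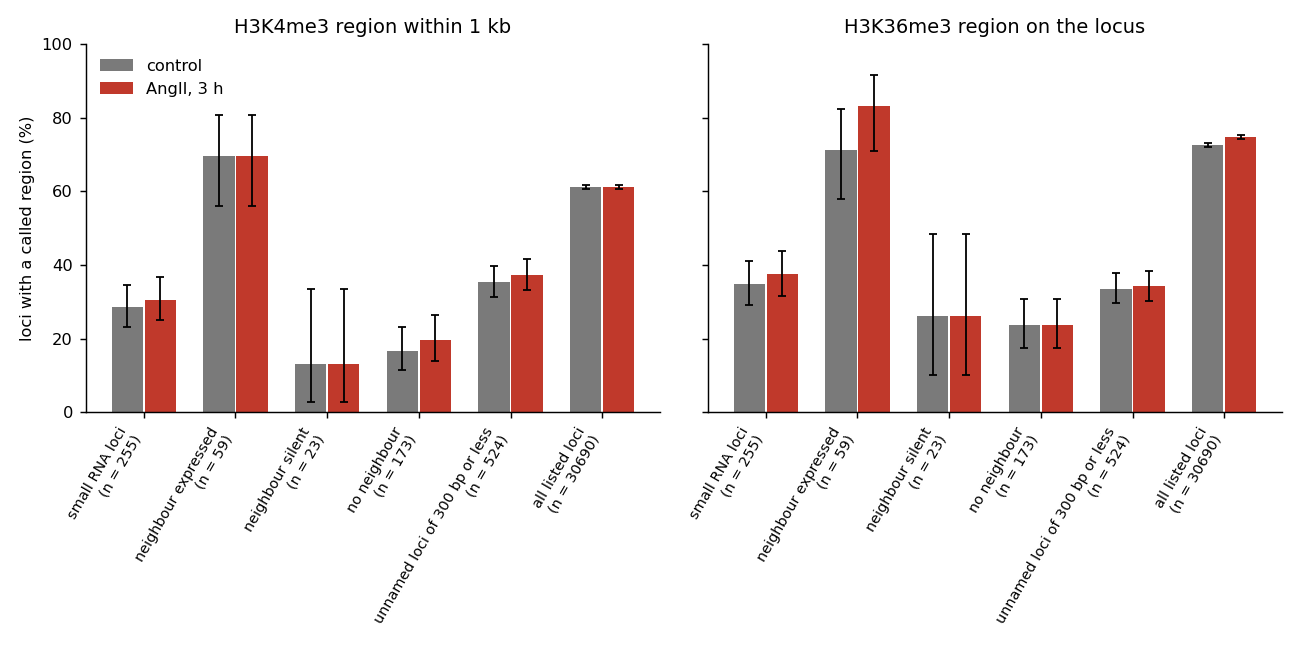
Share of loci with a called H3K4me3 region within 1 kb (left) and a called H3K36me3 region on the locus (right), in percent, in control (grey) and after AngII (red); bars are shares and lines 95% exact binomial intervals over loci. Small RNA loci with an expressed neighbour stand at 69.5% for H3K4me3 in both conditions and at 71.2% and 83.1% for H3K36me3, above those with silent neighbours or none. All listed loci stand at 61.2% for H3K4me3 in both conditions and at 72.6% and 74.7% for H3K36me3.

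Members differed by the RNA level of their neighbours. No 2 distinct intervals in the RNA table overlap, so no member lies inside a longer listed locus. Mir143 and Mir145 are listed at intervals over 300 bp and are no members. Neighbours were therefore accession loci within 5 kb, called expressed at 1 FPKM or more in control. Some were other listed rows with the member's own accession. A longer Mir449a row at 1.71 FPKM in control, for example, was the only neighbour of the members Mir449a and Mir449c. An expressed neighbour lay beside 59 members, a silent one only beside 23, and 174 had none. Counting only neighbours with a coding accession, 56 members had an expressed one. With an expressed neighbour, 41 of 59 members had H3K4me3 in control (69.5%, 56.1 to 80.8%) and 42 of 59 had H3K36me3 (71.2%, 57.9 to 82.2%). The shares of all listed loci, 61.2% and 72.6%, lie inside these intervals, so this group was marked about as often as listed loci in general. With a silent neighbour, 3 of 23 had H3K4me3 and 6 of 23 had H3K36me3 (26.1%, 10.2 to 48.4%). With none, 29 of 173 had H3K4me3 (16.8%, 11.5 to 23.2%) and 41 of 173 had H3K36me3 (23.7%, 17.6 to 30.7%). These intervals take members as independent, but members of a cluster can share a neighbour and a region. For example, 7 of the 23 with a silent neighbour are the Mir290 to Mir295-1 cluster beside Nlrp12. No count with members merged is given for these groups.

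Over the members with a neighbour, the highest neighbour had a median of 8.41 FPKM in control where the small RNA locus carried H3K36me3 (48 members, 0.0358 to 521 FPKM) and of 0.947 FPKM where it did not (34 members, 0 to 27.2 FPKM). The ranges overlapped. Of the 174 members without an accession neighbour, 10 lay within 5 kb of an unnamed listed locus at 1 FPKM or more, and all 10 carried H3K36me3 in both conditions. These 10 are not all separate loci. Mir181a-1, Mir181b1 and Mir3570, for example, lie together under 1 H3K36me3 region of 100 kb in control, and no merged count is given. The other 163 with called regions carried it 31 times in each condition (19.0%, 13.3 to 25.9%).

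The members with both marks in both conditions were ranked by the RNA level of their highest neighbour. The accessions NR_027900 and NR_028515 lay 498 and 285 bp from Rps2, which encodes a protein of the small ribosomal subunit and was at 521 FPKM in control, with deposited bounds of 292 to 751, and at 444 after AngII (250.0 to 637). Mir191, Mir425 and Mir3555 lay 2730 to 3203 bp from Impdh2, an enzyme of guanine nucleotide synthesis, at 187 FPKM in control (106 to 268) and 149.8 after AngII (85.9 to 214). Mir497 and Mir195, which share the seed AGCAGCA, lay 3321 and 2979 bp from Rnasek at 132 FPKM in control (76.8 to 186) and 106 after AngII (61.7 to 151). NR_026944 lay 32 bp from Pofut2, which adds fucose to secreted proteins, at 63.0 FPKM in control (36.7 to 89.3) and 60.3 after AngII (35.1 to 85.4). For each of these 4 neighbours the bounds deposited with the 2 levels overlapped.

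Among loci without any accession neighbour, the widest H3K4me3 regions present in both conditions lay at Mir193 and its antisense partner Mir193a, where the region measured 12.7 kb in control and 12.8 kb after AngII. Mirlet7b and Mirlet7c2 lay at a 10.9 kb region in control and within 1 kb of a 2.56 kb region after AngII. Mirlet7i, at chr7:62755360-62755444, was covered by H3K4me3 regions of 4.74 and 5.60 kb and by H3K36me3 regions of 97.8 and 93.2 kb, with no accession locus within 5 kb. Mir129-2 had H3K4me3 regions of 7.50 and 7.68 kb, with the nearest H3K36me3 region 52.2 kb away in control and 52.3 kb after AngII. Mirlet7a1 and NR_015531 complete this set, with control H3K4me3 regions of 8.57 and 4.74 kb.

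Of the list of microRNAs known in vascular and smooth muscle, 44 were members, and 24 more were listed within longer loci. H3K36me3 lay on 36 of the 44 in control (81.8%, 67.3 to 91.8%) and on 39 after AngII (88.6%, 75.4 to 96.2%), against 34.9% and 37.6% of all members and 72.6% and 74.7% of all listed loci. The share of all listed loci lies inside the control interval. H3K4me3 lay at 22 of 44 in control (50.0%, 34.6 to 65.4%) and at 24 after AngII. The control share stood against 28.6% of all members and 61.2% of all listed loci, and the latter lies inside its interval. In control 17 carried both marks, 19 carried H3K36me3 alone, 5 carried H3K4me3 alone and 3 carried neither. The 44 form 24 loci when merged within 10 kb. This list and those for other cell types were chosen with earlier results of these data known. Their shares and intervals are therefore descriptions and no independent support for a cell type.

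Those with H3K36me3 alone included Mir221 and Mir222 on chromosome X, whose products target inhibitors of the cell cycle. The H3K36me3 region over them measured 25.9 kb in control and 27.4 kb after AngII, and the nearest H3K4me3 region lay 20.3 and 18.9 kb from Mir221. Mir29a and Mir29b1, whose products target collagen messages, lay inside an H3K36me3 region of 289.8 kb in control and 529 kb after AngII, and the nearest H3K4me3 region lay 7.32 and 6.47 kb from Mir29a. Mir31 lay in H3K36me3 regions of 39.5 and 52.6 kb, with H3K4me3 16.3 and 14.6 kb away. Mir34a, a target of p53, had H3K36me3 of 28.3 and 35.6 kb and H3K4me3 7.88 and 8.18 kb away. In each of these 4 cases the body mark covered the hairpin and the promoter mark stood several kb off in both conditions.

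The 5 with H3K4me3 alone in control were Mir132, Mir212 and Mir210, which had a called H3K36me3 region after AngII, and Mir34b and Mir34c, which did not. Mir34b and Mir34c lay at H3K4me3 regions of 1.99 kb in control and 1.92 kb after AngII, with H3K36me3 26.0 and 25.9 kb from Mir34b. Mir146a, Mir206 and Mir133b carried neither mark in either condition, and Mir206 and Mir133b also stand on the list of cardiac and skeletal muscle microRNAs. For Mir146a the nearest H3K4me3 region lay 42.0 kb away in control and 42.1 kb after AngII.

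**Figure D2:**
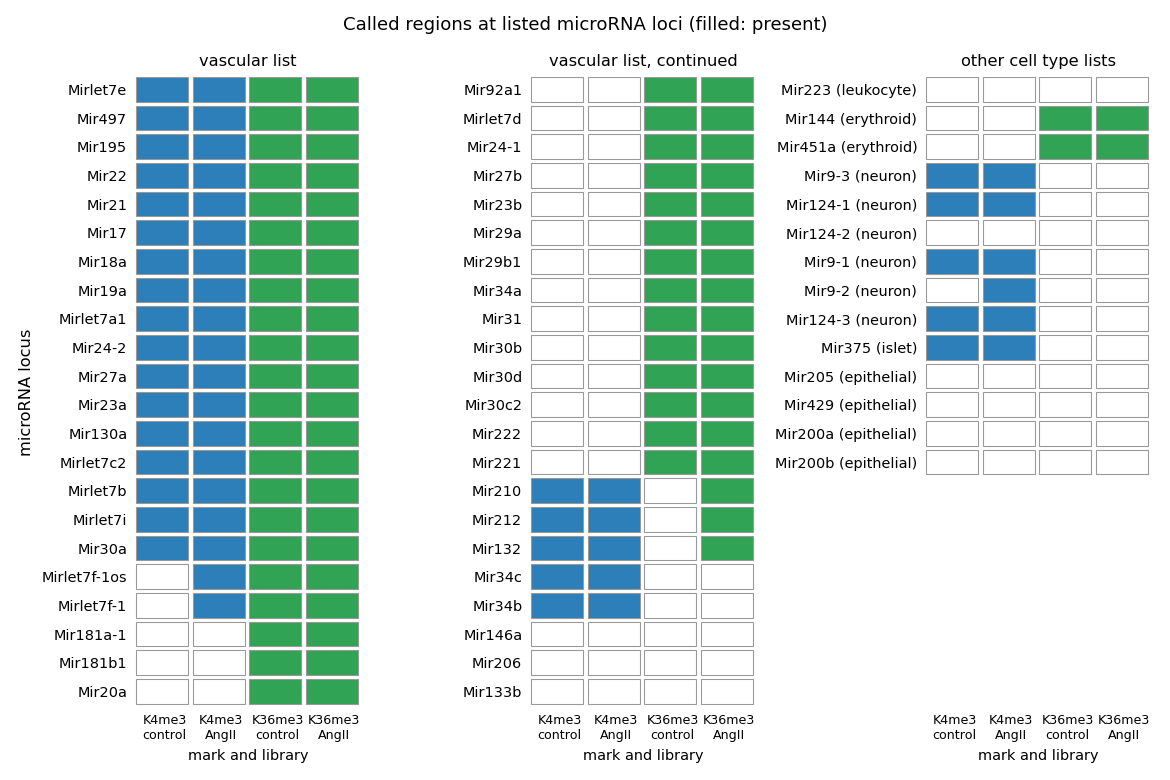
Presence (filled) or absence (open) of a called region at each member of the vascular list (left and centre) and of the lists for other cell types (right), for H3K4me3 within 1 kb (blue) and H3K36me3 on the locus (green) in each library. H3K36me3 fills 36 of 44 rows of the vascular list in control, and on the right it fills only Mir144 and Mir451a; Mir206 and Mir133b stand on a list of each kind and are drawn in the centre.

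The lists for other cell types held microRNAs known from neurons, islets, blood, muscle and epithelium. Of 16 such members, counting Mir206 and Mir133b, 5 had H3K4me3 in control (31.3%, 11.0 to 58.7%) and 6 after AngII, while 2 had H3K36me3 in each condition (12.5%, 1.55 to 38.3%). In control 28.6% of all members and 61.2% of all listed loci had H3K4me3, and 34.9% and 72.6% had H3K36me3. Both shares of all members lie inside the intervals of the 16. The 5 were the neuronal Mir9-1, Mir9-3, Mir124-1 and Mir124-3 and the islet Mir375, and none of them had H3K36me3 on it in either condition. Mir9-1 lay in H3K4me3 regions of 3.37 and 2.40 kb, with the nearest H3K36me3 13.5 kb away in control and 12.4 kb after AngII. Mir375 lay in regions of 1.38 and 1.28 kb, with H3K36me3 72.5 kb away in both. Mir124-3 lay in regions of 4.28 and 4.00 kb, with H3K36me3 3.92 and 5.72 kb away.

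The erythroid pair Mir144 and Mir451a was the exception with H3K36me3. It lies 300 and 139 bp from Eral1, a mitochondrial ribosome assembly factor at 9.90 FPKM in control (5.48 to 14.3) and 7.04 after AngII (3.78 to 10.3), and the H3K36me3 region over the pair measured 111 kb in control and 146 kb after AngII. No H3K4me3 region lay within 6 kb of either. The leukocyte Mir223 and the epithelial Mir205, Mir429, Mir200a and Mir200b had no mark in either condition. The epithelial list names Mir203a, and the member Mir203 was not counted as that entry. Mir203 lay in H3K4me3 regions of 3.67 kb in control and 2.40 kb after AngII, with H3K36me3 6.99 and 7.17 kb away.

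**Figure D3:**
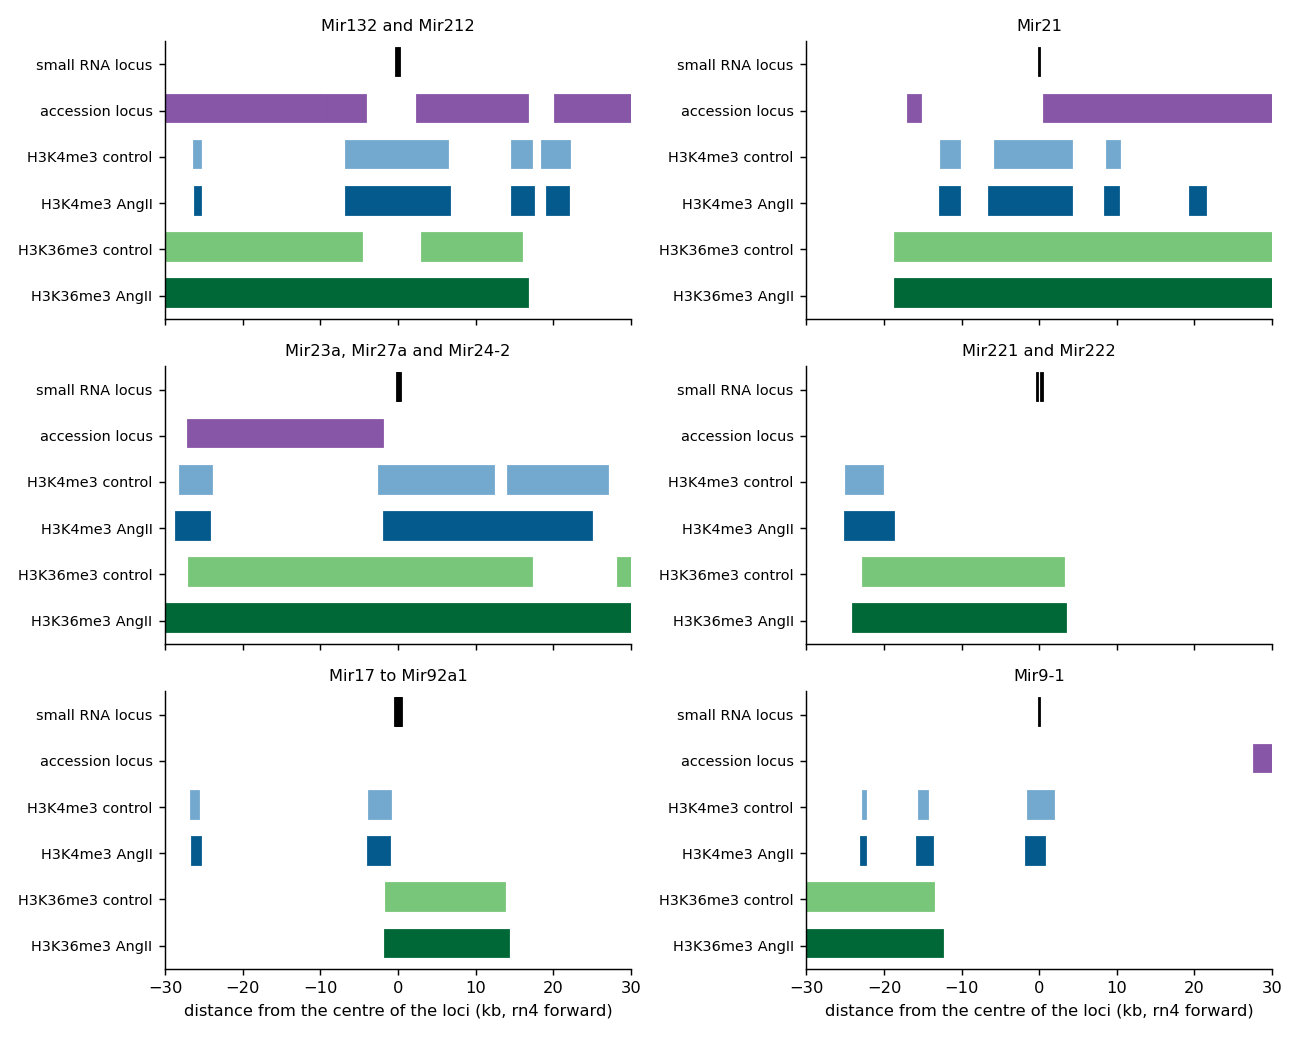
Called regions around 6 sets of microRNA loci, as distance in kb from the centre of the loci along the forward strand of rn4; rows show the small RNA loci, other accession loci and the 4 region lists, and regions that reach the edge of a panel continue beyond it. At Mir132 and Mir212 the control H3K36me3 row is open for 7.66 kb around the loci and the AngII row is filled.

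Marks called in 1 condition only were few. H3K36me3 was called after AngII only on 11 members (4.31%), where 5.72% of all listed loci had that change, and in control only on 4 members (1.57%), against 3.55%. H3K4me3 was called after AngII only at 6 members (2.35%), against 1.65% of all listed loci and 3.82% of the 524 short unnamed loci. It was called in control only at 1 (0.392%), against 1.67% and 1.91%. The share with H3K4me3 after AngII only lay between those of the 2 backgrounds, and the others lay below all listed loci. They are no result about the members as a group, and the loci are described one by one. An expressed neighbour lay beside 10 of the 11 members with H3K36me3 after AngII only, which include the pairs Mir210 with Mir3574 and Mir132 with Mir212, and beside 3 of the 4 with it in control only.

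Mir132 and Mir212, at chr10:62480434-62480827, lay under H3K4me3 regions of 13.2 kb in control and 13.4 kb after AngII. In control the H3K36me3 list had a gap of 7.66 kb over the pair (chr10:62476014-62483670), and the nearest region began 2.84 kb from Mir132. After AngII a single H3K36me3 region of 409.9 kb covered the pair and both sides. Beside them Hic1, a transcriptional repressor 4220 bp from Mir132, stood at 1.36 FPKM in control (0.628 to 2.10) and at 5.49 after AngII (3.01 to 7.98), and these bounds do not overlap. On the other side the Dph1 and Ovca2 locus stood at 13.5 FPKM (8.80 to 18.2) and 14.4 FPKM (9.86 to 18.9), with overlapping bounds. H3K36me3 regions covered 91.5% of the Hic1 locus in control and 100% after AngII. Mir212 itself was listed at 0 in control and at 2.20 FPKM after AngII, with a lower bound of 0, so these levels are not apart.

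Mir210, the hypoxia-induced microRNA, shares its position (chr1:201415650-201415767) with Mir3574. RefSeq gives the 2 hairpins on opposite strands with a shared stretch of 110 bases, and the hairpins are shown so that the overlap can be seen.
Mir210 hairpin: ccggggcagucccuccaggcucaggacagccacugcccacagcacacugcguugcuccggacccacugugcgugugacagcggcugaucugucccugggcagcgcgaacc
Mir3574 hairpin: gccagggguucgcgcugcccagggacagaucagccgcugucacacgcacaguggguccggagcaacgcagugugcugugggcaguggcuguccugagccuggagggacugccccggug
In control the nearest H3K36me3 region lay 7.42 kb away, and after AngII a region of 7.67 kb covered the position. The H3K4me3 region at it measured 8.26 kb in control and 2.24 kb after AngII. Its neighbour Rassf7 is listed at more than 1 locus. The one 2566 bp away stood at 9.09 FPKM in control (4.89 to 13.3) and 4.93 after AngII (2.49 to 7.38), with overlapping bounds. The nearer one, at 1156 bp, stood at 0.721 FPKM in control (0.145 to 1.30) and 0.0597 after AngII (0 to 0.179). These bounds overlap too. H3K36me3 covered 0% of each in control and 100% after AngII. Mir3574 is named here because it shares that position.

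Distance qualified several of these calls. H3K36me3 regions are whole bins, of 589 bp in control and 548 bp after AngII. Of the 11 members with H3K36me3 after AngII only, 4 lay within 1 control bin of a control region, at 522 bp for Mir146b, 387 bp for Mir3547, 420 bp for Mir320a and 184 bp for the accession pair NR_001460 and NR_003051. Mir320a was named after its values were seen. For Mir92b, whose control region ended 1.63 kb away, the gap in control measured 8.25 kb and the AngII region 66.9 kb. Mir3566 had the nearest control region 4.00 kb away and an AngII region of 20.8 kb. That region ended at chr17:29445707, just inside the locus at chr17:29445701-29445809, so it covered only the edge of Mir3566.

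Mir802 was the single member with both marks after AngII only. At chr11:33538466-33538561 the AngII lists held an H3K4me3 region of 0.800 kb, 5 bins wide, and an H3K36me3 region of 37.3 kb, while the nearest control regions lay 68.1 and 55.5 kb away. It had no accession locus within 5 kb and was listed at 0 FPKM in both libraries. Mir9-2 and its antisense partner Mir3597-2 had an H3K4me3 region of 0.960 kb after AngII only, with the nearest control region 4.95 kb away. Mirlet7f-1 and Mirlet7f-1os passed the 1 kb limit after AngII, where the region lay 293 bp from Mirlet7f-1, and stood 1200 bp from a control region. The call there rests on a shift of less than 1 kb. Snhg4 stood 1670 bp from a 1-bin control region and 339 bp from an AngII region of 4.48 kb. Its RNA was 4.47 FPKM in control (0.964 to 7.98) and 9.42 after AngII (3.10 to 15.7), with overlapping bounds.

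Regions called in control only were seen at Mir3593, which lay in an H3K36me3 region of 135 kb in control and 3.38 kb from the nearest AngII region, of 12.1 kb, and at Mir190b, in a region of 60.7 kb in control and 3.17 kb from one of 55.3 kb after AngII. The accession pair NR_003003 and NR_028560 beside Acaa2, an enzyme of fatty acid oxidation, was 1.65 kb from the AngII region. One copy of NR_002899 on chromosome 7 had H3K36me3 in control and stood 982 bp from an AngII region. Another copy on chromosome 3 had a 765 bp H3K4me3 region in control, and the nearest AngII region lay 486446 bp away.

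Where both lists held a region, its width was compared. H3K36me3 regions at members formed 45 pairs, and the AngII region was the wider of the pair in 36 (80.0%, 65.4 to 90.4%), where 58.8% of the 7629 pairs at all listed loci were wider. The medians were 42.4 kb in control and 63.6 kb after AngII at members, and 36.5 and 43.8 kb over all pairs. At least 2 times wider were 11 of 45 pairs, and at least 2 times narrower 1. Pairs can share a region, so the interval treats as independent some pairs that are not. The control regions at Mir181c (7.07 kb) and Mir24-2 (44.2 kb), for example, both pair with the AngII region of 136 kb. H3K4me3 regions at members formed 49 pairs, of which 26 were wider after AngII, where 55.4% of all pairs were. The bins differ between the 4 lists and each list comes from 1 library, so caller, depth and condition cannot be told apart in these widths.

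The Mir23a, Mir27a and Mir24-2 cluster lies at chr19:25638430-25638818. Its H3K4me3 region measured 14.8 kb in control and 26.7 kb after AngII, and its H3K36me3 region 44.2 kb and 136 kb. In control a second H3K4me3 region lay a short distance beyond the first, as the map of called regions shows, so the AngII region spans ground that 2 control regions already held. Zswim4, a zinc finger SWIM domain gene 1712 bp from Mir24-2, stood at 8.49 FPKM in control (4.89 to 12.1) and 31.9 after AngII (18.6 to 45.2), a log2 ratio of 1.79 with a pseudocount of 1, and these bounds do not overlap. The second copy of this cluster, Mir23b, Mir27b and Mir24-1 on chromosome 17, had H3K36me3 of 83.6 and 164 kb and no H3K4me3 within 1 kb in either condition. Its neighbour Aopep, an aminopeptidase, stood at 4.23 FPKM (2.20 to 6.27) and 4.86 FPKM (2.56 to 7.15), with overlapping bounds. The mature strands of both clusters share the seed UCACAUU for miR-23 and the seed UCACAGU for miR-27, and both clusters carried the body mark.

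Mir21, at chr10:74864500-74864591, carried both marks in both conditions. Its H3K4me3 region measured 9.95 kb in control and 10.7 kb after AngII, and its H3K36me3 region 235 kb in each. Vmp1, an autophagy gene whose 3′ end lies next to Mir21 and which is 533 bp away here, stood at 58.2 FPKM in control (34.1 to 82.4) and 134 after AngII (76.9 to 191). The log2 ratio was 1.19, and the bounds overlap.

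Across the 53 neighbour loci expressed in either library, 4 were at least 2-fold higher after AngII, where 3.48% of 11703 expressed accession loci were, and 0 were at least 2-fold lower, where 3.02% were. Ratios here carry the pseudocount of 1 FPKM; without it the same 4 were at least 2-fold higher and 6 were at least 2-fold lower, all 6 at 4.66 FPKM or less in control, and over the 11703 loci the counts without it were 584 and 1058. The 4 were Hic1, Zswim4, Vmp1 and NM_212504, an accession without a matched symbol at 24.3 FPKM in control (15.1 to 33.5) and 209 after AngII (120 to 297), 3703 bp from the pair NR_002742 and NR_028527. The bounds were apart for 3 of the 4, the exception being Vmp1. With a pseudocount of 5 the log2 ratio of Hic1 was 0.72, under 2-fold. The median log2 ratio of the 53 was -0.32 and that of all expressed accession loci -0.22.

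**Figure D4:**
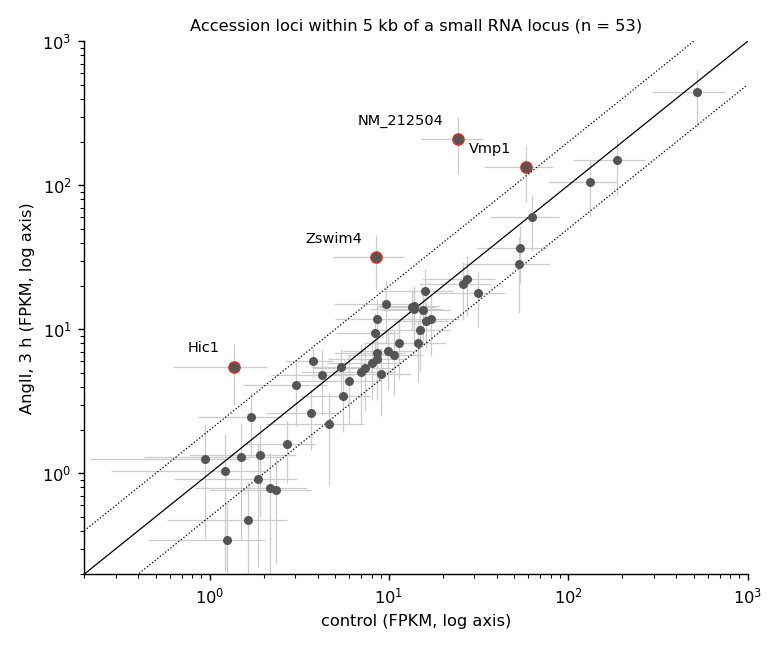
RNA level of the 53 accession loci within 5 kb of a small RNA locus and at 1 FPKM or more in either library, control against AngII, both on log axes in FPKM; lines on the points are the deposited bounds, cut at the axis where they fall below it, the solid line marks equality and dotted lines a 2-fold ratio. The 4 red points, Hic1, Zswim4, Vmp1 and NM_212504, lie above the upper dotted line, and 6 points at 4.66 FPKM or less in control lie below the lower one.

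Clusters of microRNAs with few or no marks made up much of the 135 members with neither mark in control. On chromosome 6, between Mir770 and Mir410 (chr6:134141361-134425157), lie 52 members of an imprinted microRNA domain whose genes are read from 1 parental copy. One of the 52, Mir136, had H3K4me3 within 1 kb in both conditions (1.92%, 0.0487 to 10.3%), at 393 bp from a 765 bp region in control and 485 bp from a 480 bp region after AngII. H3K36me3 lay on none of them in either condition, which allows a share of up to 6.85% by the exact interval. The median distance to the nearest H3K4me3 region was 19.6 kb in control and 210 kb after AngII, and a 1224 bp control region beyond Mir410, the nearest one for 39 of the 52, had no counterpart in the AngII list. Members outside these clusters had medians of 4.95 and 4.52 kb.

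**Figure D5:**
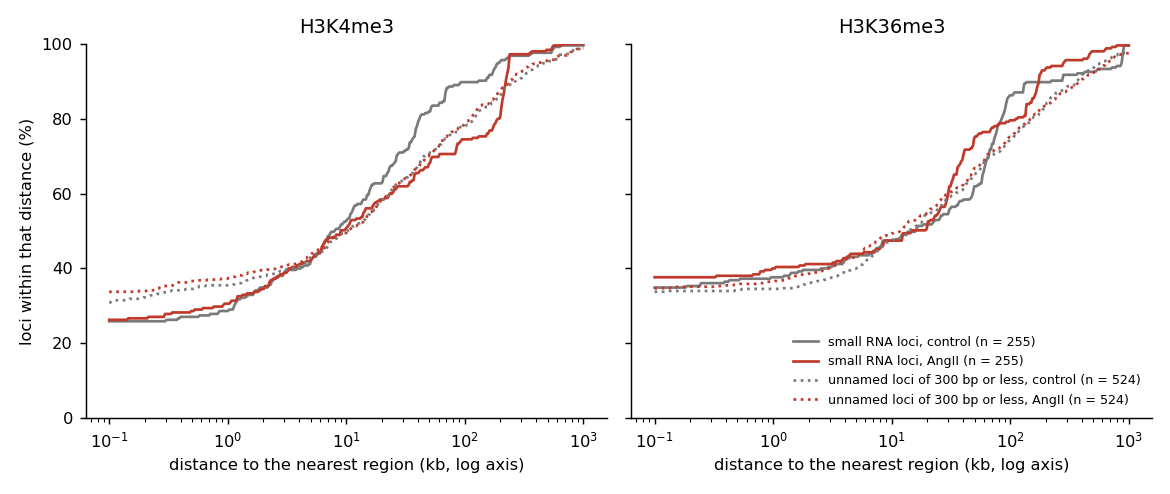
Share of loci (percent) whose nearest called region lies within a given distance (kb, log axis), for H3K4me3 (left) and H3K36me3 (right), in control (grey) and AngII (red) lists; solid lines are the 255 small RNA loci and dotted lines the 524 unnamed loci of 300 bp or less. The solid H3K4me3 curves separate between about 10 and 200 kb, where the chromosome 6 clusters lie.

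On chromosome X, 17 members between chrX:152821786 and 154169519 had no mark in either condition, and the nearest H3K36me3 region to any of them lay 278 kb away in control and 134 kb after AngII. The 7 members from Mir290 to Mir295-1 on chromosome 1, a cluster known from embryonic stem cells, had no mark either. A pair of paralogous clusters differed in H3K36me3. Mir17, Mir18a, Mir19a, Mir20a, Mir19b1 and Mir92a1 on chromosome 15, known as promoters of cell growth, had H3K36me3 on 6 of 6 in both conditions, in regions of 15.3 kb in control and 15.9 kb after AngII. Their copies on chromosome X, Mir106a, Mir20b, Mir19b2, Mir92a2 and Mir363, had no H3K36me3 on any of 5, with the nearest region 129 kb from Mir106a in control and 136 kb after AngII. No H3K4me3 region lay within 1 kb of them, and one of 1.53 kb in control and 1.44 kb after AngII lay 1.83 and 1.92 kb from Mir106a, the closest, and 2.61 and 2.70 kb from Mir363, the farthest. Mir17 and Mir20a in the first cluster and Mir106a and Mir20b in the second carry the seed AAAGUGC, and 3 of these strands are shown.
miR-17-5p (Mir17): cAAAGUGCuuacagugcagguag
miR-20a-5p (Mir20a): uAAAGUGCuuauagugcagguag
miR-20b-5p (Mir20b): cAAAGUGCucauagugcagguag
The entry for Mir106a holds the same mature sequence as that for Mir17, so these 2 loci give the same 5p strand, with H3K36me3 on Mir17 only.

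H3K4me3 split the chromosome 15 cluster at the 1 kb limit. Its nearest control region lay 571 bp from Mir17 and 854 bp from Mir19a, inside the limit, and 1026 bp from Mir20a and 1278 bp from Mir92a1, outside it. Of all members, Mir19a was the last inside the limit in control and Mir20a the first outside.

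Seeds were read for the 218 members with a mature sequence. Among 32 seeds shared across at least 2 separate loci, H3K36me3 in control lay on every locus for 9 seeds, on some for 8 and on none for 15. These seeds are not independent, because both strands of a hairpin and its antisense partner can each give a seed. Mir9-1, Mir9-2 and Mir9-3, for example, count under both CUUUGGU and UAAAGCU. The let-7 seed GAGGUAG was of the first kind, with H3K36me3 on 7 of 7 loci in both conditions and H3K4me3 at 5 in control and 6 after AngII.
let-7b-5p (Mirlet7b): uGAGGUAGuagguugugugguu
let-7i-5p (Mirlet7i): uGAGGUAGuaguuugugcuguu
The seed GGCAGUG of the miR-34 and miR-449 family was mixed, with H3K36me3 on 1 of 5 loci, Mir34a, and H3K4me3 at 3. The miR-9 seed CUUUGGU was of the last kind, with H3K4me3 at 2 of 3 loci in control and 3 of 3 after AngII and no H3K36me3 on any.

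Hairpin composition differed by mark state. The median GC content was 55.9% over 28 hairpins with both marks in control and 55.7% over 20 with H3K4me3 alone, against 47.2% over 36 with H3K36me3 alone and 46.0% over 126 with neither. The quartiles were 51.0 to 59.9% for both marks and 41.6 to 52.5% for neither, so the distributions overlap, and hairpins of a cluster are not independent.

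The RNA table itself showed little at the small RNA loci. Of 256 members, 232 were listed at 0 FPKM in both libraries, 15 were above 0 in control and 23 after AngII. The labels give a ribosome-depleted RNA library and name no selection of small RNA, so a level of 0 says nothing of the mature microRNA. No microRNA locus was above 0 in control and 9 were above 0 after AngII, among them Mir22 at 3.41 FPKM, Mir23b at 3.46 FPKM and Mirlet7d at 1.35 FPKM. All 9 had a lower bound of 0 after AngII. Short loci without an accession went from 0 to above 0 in 14 of 524 cases and from above 0 to 0 in 9. At least 2-fold higher were 6 members, where 2.5% of all usable loci were, and at least 2-fold lower 1 member, where 2.98% were.

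The highest levels belonged to unmatched accessions. NR_001460 and NR_003051, listed together, stood at 28926 FPKM in control (12101 to 45751) and 25790 after AngII (10485 to 41095). The 3 loci listed for NR_028349 lie close together at chr11:26755465-26756098. They stood at 5782, 3438 and 2.42 FPKM in control and at 3462, 4163 and 0 after AngII. Bounds of the higher loci overlapped between conditions. The lowest locus had bounds of 0.256 to 4.59 in control and was listed at 0 after AngII. Whether these are separate copies or parts of 1 locus was not tested, as no rn4 sequence was read. FPKM of loci this short is sensitive to how fragments are counted. The pair NR_003023 and NR_028538 stood at 98.4 and 86.6 FPKM, NR_015531 at 80.7 and 72.4, and NR_002142 at 34.6 and 21.2, each with overlapping bounds.

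Of 30 listed genes that make or use small RNAs, 18 had a matched locus and 17 were at 1 FPKM or more, with 0 at least 2-fold higher and 1 at least 2-fold lower, and a median log2 ratio of -0.09. The 1 was Tnrc6b, a partner of Argonaute in silencing, at 15.7 FPKM in control and 6.69 after AngII (log2 ratio -1.12), with overlapping bounds. Dgcr8, which binds the primary hairpin, stood at 12.1 and 13.3 FPKM, and Xpo5, which exports it from the nucleus, at 20.2 and 15.8 FPKM. Ddx5, a helicase of the nuclear cutting complex, stood at 330.4 and 421 FPKM. Nop58 and Fbl, core proteins of box C/D small nucleolar particles, stood at 31.9 and 46.8 FPKM and at 47.3 and 44.3 FPKM. Lin28a, which blocks let-7 processing, was at 0.0650 FPKM in control and listed at 0 after AngII.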

How the data were processed

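The authors deposited RNA levels in FPKM with lower and upper bounds for both conditions in 1 table. The submitters' processing notes list TopHat, Cufflinks and Cuffdiff for RNA, Bowtie for ChIP-seq and the assembly rn4; no versions are listed. The ChIP-seq lists give regions with a deposited score, used only to filter regions within a list; the region caller and depths are not given in the sources used here. Both input libraries were not analysed here. Coordinates are rn4, 1-based, and strand is not given for the loci. Symbols and sequences come from RefSeq tables of GRCr8, used without coordinates; 221 members matched the sequence table.

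Python 3.11.15, numpy 2.4.6, pandas 2.3.3 and scipy 1.17.1 were used. Ratios are log2((AngII FPKM + 1)/(control FPKM + 1)), which understates low levels; the median over all expressed loci was -0.24. A locus was called higher or lower at 2-fold. The overlap code was checked on simulated intervals. Alternatives were those under the closing section. With 1 library per condition nothing was tested, and the bounds hold no replicate variation. Named loci are the listed microRNAs, up to 8 per mark and direction with a mark in 1 condition only (widest region first), up to 8 with both marks beside the highest neighbour, up to 8 with H3K4me3 and no neighbour, and those of highest FPKM; exceptions are marked in the text. The members and lists were chosen with earlier results of these data known.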

Additional observations from a re-analysis of the deposited data

How the results depend on the processing

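No paired analysis was possible because every condition has a single library per assay, which also left no library to leave out. Of 79 values of the main results under other settings, 59 stayed within the interval of the value or within 1.5 times the count. H3K4me3 moved from 28.6% in control and 30.6% after AngII to 42.0% in both with a window of 5 kb, to 40.7% and 41.5% with members merged within 10 kb, and to 35.5% and 37.9% outside the chromosome 6 clusters. H3K36me3 moved from 34.9% and 37.6% to 41.5% and 45.5% when merged and to 43.8% and 47.3% outside those clusters. Among marks in 1 condition only, H3K4me3 after AngII only went from 6 to 2 when merged and to 2 at positions held by 1 locus, and in control only from 1 to 5 without the lowest quartile of scores and to 2 with spans up to 500 bp. H3K36me3 after AngII only went from 11 to 7 where a region within 1 bin counted as present, and in control only from 4 to 7 without the lowest quartile of scores. Members with an expressed neighbour went from 59 to 0 when an overlap was required, since listed intervals do not overlap. Members at least 2-fold higher went from 6 to 11 with a pseudocount of 0.1 and to 0 with 5, and those lower from 1 to 0 with 5. The log2 ratio of Hic1 went from 1.46 to 0.72 with a pseudocount of 5. The settings outside the chromosome 6 clusters, the 1-bin rule and neighbours with a coding accession only were chosen after seeing the data. Depth is unknown, so a region not called is not shown to be absent.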
